A study of Mus musculus with 4 samples.

Results

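The adipocyte genes described here are Cfd, Adipoq, Retn, Lep, Plin1, Plin4, Cidec, Fabp4, Lpl and Car3, 10 of 17574 genes in the files, taken by symbol as genes typical of fat cells. They were measured by bulk RNA sequencing of SCC7 tumours, a transplanted mouse squamous carcinoma of the head and neck grown under the dorsal skin of C3H/HeN mice, labelled WT. The anti-CD71 group (2 libraries) came from mice given antibody to the transferrin receptor CD71 on days 6 and 9, and the control group (2 libraries) from tumour-bearing mice labelled Control, whose injections, if any, the labels do not describe. All tumours were taken on day 10. The labels do not say whether the libraries of a group came from separate mice, so p-values measure the spread between these libraries only. Values are TPM, a transcript abundance corrected for length and scaled to a fixed total per library, with an unknown read depth. Whether the RNA of these genes came from tissue around the tumour was not measured.

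Adipocytes store triglyceride in a lipid droplet whose surface is coated by perilipins. They take up fatty acids that lipoprotein lipase frees from circulating lipoproteins, and they secrete hormones such as adiponectin and leptin. Mouse skin holds a layer of dermal adipocytes around the hair follicles and lies over subcutaneous fat and a thin muscle sheet, so a tumour under the skin can border on all of these.

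The file of anti-CD71 replicate 1 held 13586 of 59881 transcripts, and 3 of the 20 transcripts of the 10 genes analysed here were among them. RefSeq gives these genes 28 transcripts; 1 each of Cfd, Retn and Cidec and 5 of Plin4 were not analysed here, so the levels of these 4 genes cover part of their transcripts. Only Lep was listed there in full. The other 9 genes are therefore compared between anti-CD71 replicate 2 and the 2 controls, and a transcript absent from the partial file counts as missing, not as 0. The libraries also differed in markers of other tissues. Summed TPM of 14 epidermis and hair markers were 286.42 in anti-CD71 replicate 2, against 2.02 and 2.36 in the controls. Summed TPM of 14 skeletal muscle markers were 126.49 in anti-CD71 replicate 2, against 202.65 and 51.13 in control replicates 1 and 2. What these differences contribute to the results below was not tested. In bulk RNA, more cells of a type and more RNA per cell cannot be told apart.

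Most of the 10 adipocyte genes, summed over all transcripts, stood higher in anti-CD71 replicate 2 than in either control. Apart from Fabp4 they were at 15.32 TPM or less in each of these libraries. Cfd, which encodes the secreted protease adipsin, was the single member to pass the test (10.6 times the control mean; log2 change 2.76, with an SE of 0.26 and, by limma, an adjusted p of 0.0249 from 3 libraries). Cfd met the filter for testing only with the treated library, since control replicate 2 was at 0.99 TPM. Of the 10 genes, 9 lay above both controls, Car3 being the exception, whereas 39.3% of the 17026 genes above 0 TPM, 39.5% of the tested genes and 40.3% of the 4844 genes under 1 TPM in both controls did so. None lay below both controls, as 36.7% of the genes above 0 TPM did. At least 2-fold above the higher control were 6 genes, Cfd, Adipoq, Cidec, Plin1, Plin4 and Lep, against 7.65% of all genes and 26.0% of the genes under 1 TPM in both controls. With curated RefSeq transcripts alone, an alternative chosen after seeing the data, the counts were 7 above both controls and 4 at least 2-fold above. The shares over all genes were not counted for curated transcripts, so these 2 counts have no background beside them. All of these counts rest on 1 treated library. The 10 genes and the lists below were chosen with earlier results of these data known. Their counts beside the shares over all genes are therefore a description and no test.

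**Figure D1:**
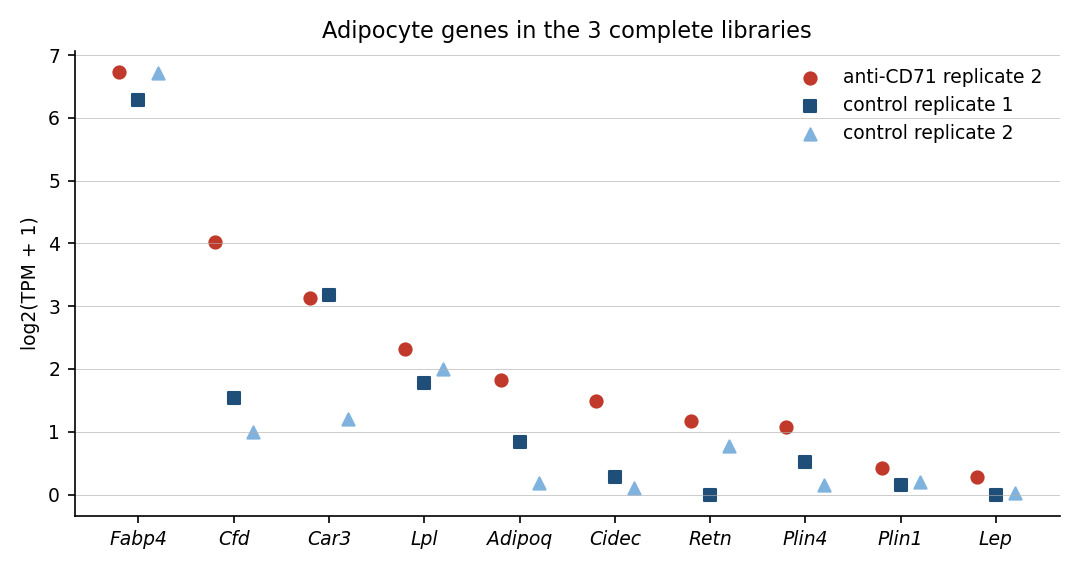
Level of each adipocyte gene as log2(TPM + 1) in anti-CD71 replicate 2 (circles), control replicate 1 (squares) and control replicate 2 (triangles), 1 point per library. The treated library is highest for every gene except Car3, and Fabp4 stands far above the rest in all 3 libraries.

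The stretches of DNA just before the start of 4 of these genes are shown because they stand for the secreted (Cfd, Adipoq, Lep) and the lipid droplet (Plin1) genes that, summed over all transcripts, were more than 2-fold higher. Each is the 250 bases before a start in the RefSeq promoter table on GRCm38.p6, 5' to 3' on the gene's strand. For Plin1 that start lies inside the annotated gene, which ends at 79732904, so part of its window overlaps the gene. The table does not name the transcript that begins there. Capitals mark the letters TTGCNNAA, a core recognised by C/EBP factors, and CCAAT, the CCAAT box, on either strand; neither is in the window of Cfd. The windows are chr10:79890603-79890852 (plus strand) for Cfd, chr16:23146286-23146535 (plus) for Adipoq, chr6:29059971-29060220 (plus) for Lep and chr7:79732777-79733026 (minus) for Plin1.
Cfd: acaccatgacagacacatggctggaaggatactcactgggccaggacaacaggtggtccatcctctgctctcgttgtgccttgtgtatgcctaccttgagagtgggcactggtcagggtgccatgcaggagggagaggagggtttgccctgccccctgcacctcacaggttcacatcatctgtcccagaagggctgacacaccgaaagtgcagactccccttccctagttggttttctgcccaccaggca
Adipoq: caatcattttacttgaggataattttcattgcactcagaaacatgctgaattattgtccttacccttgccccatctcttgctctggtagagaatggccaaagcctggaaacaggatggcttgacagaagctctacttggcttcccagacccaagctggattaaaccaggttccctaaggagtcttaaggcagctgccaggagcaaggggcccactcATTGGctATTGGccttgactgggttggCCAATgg
Lep: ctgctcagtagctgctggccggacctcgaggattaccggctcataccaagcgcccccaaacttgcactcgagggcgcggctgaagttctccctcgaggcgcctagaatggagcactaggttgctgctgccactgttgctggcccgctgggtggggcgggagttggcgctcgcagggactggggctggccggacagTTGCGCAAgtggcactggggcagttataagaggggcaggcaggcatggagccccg
Plin1: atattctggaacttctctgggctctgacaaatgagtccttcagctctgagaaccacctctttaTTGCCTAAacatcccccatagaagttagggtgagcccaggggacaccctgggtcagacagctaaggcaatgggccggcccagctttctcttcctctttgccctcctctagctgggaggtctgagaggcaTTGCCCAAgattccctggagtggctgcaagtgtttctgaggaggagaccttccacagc

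The RefSeq table held windows for 7 of the 10 genes (8 windows, 2 of them for Cidec) and none for Fabp4, Lpl and Car3. TTGCNNAA was found in 3 of the 8 windows (Lep, Plin1 and 1 of Cidec) and in 9.56% of all 32851 windows. The match in Lep reads the same on both strands. CCAAT was found in 2 of the 8 (Adipoq, with 3 matches, and Plin4) and in 33.8% of all windows. AGGTCA, the nuclear receptor half-site, was in 0 of the 8 windows and in 14.0% of all windows, and TATAAA, which marks some core promoters, in 0 of the 8 and in 12.4%. The direct repeat that PPAR and RXR factors bind, AGGTCA followed by itself with a single base between, was in 0 of the 8 and in 0.0335%. All motifs were searched on both strands. These are matches of letters and do not show that a factor binds.

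Among the secreted proteins, Cfd showed the clearest difference. Its gene lies on chromosome 10 from 79890853 to 79892655 and encodes complement factor D, which adipocytes release and which starts the alternative complement pathway. Cfd was at 15.32 TPM in anti-CD71 replicate 2, against 1.9 and 0.99 TPM in control replicates 1 and 2 (control mean 1.445 ± 0.643, SD, n = 2). The treated library lay far outside the range of the controls, which differed from each other by 0.54 on the log2(TPM + 1) scale. Cfd was admitted to the test through the treated library, where it is high, because control replicate 2 was below 1 TPM. Both listed transcripts were higher in the treated library. NM_001291915 was at 9.06 TPM in anti-CD71 replicate 2, against 1.11 and 0.66 TPM in the controls, and NM_013459 at 6.26 TPM, against 0.79 and 0.33 TPM. The background for a call was low, since limma called 57 of 11982 tested genes higher (0.476%) and 286 lower (2.39%). The call of Cfd was lost without the intensity trend in the variance prior (adjusted p = 0.0892 by limma), with a filter of 1 TPM in 1 library (adjusted p = 0.127 by limma) and with no filter (adjusted p = 0.207 by limma). Its log2 change was between 2.49 and 3.38 under every alternative run, and leaving out a control gives a difference with no test.

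Adipoq encodes adiponectin, a hormone made almost only by adipocytes, on chromosome 16 from 23146536 to 23157968. It was at 2.54 TPM in anti-CD71 replicate 2, against 0.78 and 0.13 TPM in the controls. The treated library was 5.58 times the control mean, but the controls themselves differed 6.0-fold, with control replicate 1 the higher. Adipoq reached 1 TPM in the treated library alone, so it was below the filter for testing. With a filter of 1 TPM in 1 library, which admits it through the library where it is high, it did not pass either (log2 change 1.32, adjusted p = 0.202 by limma).

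Retn encodes resistin, an adipocyte hormone in mice. It was at 1.25 TPM in anti-CD71 replicate 2, listed at 0 in control replicate 1 and at 0.7 TPM in control replicate 2. The treated library was highest, yet the distance to control replicate 2 was smaller than that between the controls. These values come from 1 transcript, NM_001204959, and its other RefSeq transcript, NM_022984, was not analysed here, so they do not give the level of the whole gene. Lep encodes leptin, the hormone that reports fat stores to the brain. Its level was 0.02 TPM in anti-CD71 replicate 1, 0.21 TPM in anti-CD71 replicate 2, listed at 0 in control replicate 1 and at 0.02 TPM in control replicate 2. Lep is the single one of the 10 genes that can be followed in both treated libraries, and they did not behave alike: replicate 1 lay at the level of control replicate 2, and replicate 2 above all others. All 4 values are under 1 TPM. Lep was below the filter, and without one it did not pass over 4 libraries (log2 change 0.14, SE 0.1, adjusted p = 0.541 by limma).

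Summed over all transcripts, the lipid droplet genes were also highest in anti-CD71 replicate 2, at 1.82 TPM or less. Over curated transcripts this held for Cidec and not for Plin1 or Plin4. Cidec, on chromosome 6 from 113424634 to 113435760, encodes a protein that lets small droplets merge into a large one. It was at 1.82 TPM in anti-CD71 replicate 2, against 0.21 and 0.08 TPM in the controls, or 12.6 times their mean. Of its transcripts, NM_001301295 was at 1.35 TPM in the treated library and listed at 0 in both controls, and NM_178373 was at 0.47 TPM, against 0.21 and 0.08 TPM. Cidec was below the filter and did not pass with a filter of 1 TPM in 1 library (log2 change 1.30, adjusted p = 0.127 by limma).

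Plin1 encodes perilipin 1, which guards the droplet against lipases, and Plin4 a perilipin that coats new droplets. Summed over transcripts, Plin1 was at 0.34 TPM in anti-CD71 replicate 2, against 0.11 and 0.15 TPM in the controls, and Plin4 at 1.11 TPM, against 0.43 and 0.11 TPM. Which transcript carried the value differed between libraries. The 0.34 TPM of Plin1 in anti-CD71 replicate 2 came wholly from the predicted transcript XM_011250776, listed at 0 in both controls and in anti-CD71 replicate 1. The controls' values came from the curated NM_001113471, listed at 0 in anti-CD71 replicate 2. Over curated transcripts Plin1 was therefore lower in the treated library. For Plin4 the curated NM_020568 was at 0.15 TPM in anti-CD71 replicate 2, between the controls at 0.4 and 0.05 TPM. The direction of both perilipin genes thus depends on the predicted transcripts.

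Fabp4 and Lpl, which other cells use too, differed less. Fabp4 encodes a fatty acid carrier of adipocytes that macrophages and capillary endothelium also make, on chromosome 3 from 10204342 to 10208616. It was at 105.33 TPM in anti-CD71 replicate 2, against 77.37 and 103.77 TPM in the controls (mean 90.57 ± 18.7, SD, n = 2). The treated library lay just above control replicate 2, by less than the distance between the controls (log2 change 0.23, SE 0.18, adjusted p = 0.467 by limma). Lpl encodes lipoprotein lipase, also made by macrophages and muscle. It was at 3.97 TPM in anti-CD71 replicate 2, against 2.43 and 3.0 TPM in the controls (log2 change 0.42, SE 0.18, adjusted p = 0.234 by limma), and did not pass. Of 8 macrophage markers 5 fell by limma (Lyz2, C1qa, Cd68, Cd14 and Csf1r), all 8 lay below both controls, and their summed TPM were 3009.83 in anti-CD71 replicate 2, against 5471.72 and 6992.08 in the controls. Summed TPM of 8 capillary endothelium markers were 71.88 in anti-CD71 replicate 2, against 85.08 and 83.57 in the controls, and 0 of them passed the test in either direction by limma, with Pecam1 (log2 change -0.36, adjusted p = 0.106), Cdh5 (-0.05) and Emcn (-0.19) having the highest levels. Over all genes above 0 TPM, 36.7% lay below both controls in anti-CD71 replicate 2. Of the 3 macrophage markers tested over 4 libraries, 2 fell, beside 3.45% of all genes tested there. They were Csf1r (log2 change -1.03, adjusted p = 0.032 by limma) and Cd14 (-0.44, adjusted p = 0.0388 by limma). Csf1r was at 69.38 and 66.83 TPM in anti-CD71 replicates 1 and 2, against 125.77 and 156.93 TPM in the controls. The part of macrophages and capillary endothelium in the Fabp4 and Lpl values was not tested.

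Car3 encodes a carbonic anhydrase abundant in both adipocytes and skeletal muscle, on chromosome 3 from 14863538 to 14872381. It was at 7.72 TPM in anti-CD71 replicate 2, against 8.01 and 1.3 TPM in control replicates 1 and 2. The treated library thus lay inside the range of the controls, which differed 6.16-fold (log2 change 0.94, SE 0.77, adjusted p = 0.494 by limma). Skeletal muscle markers showed the same order of the controls: 13 of 14 were higher in control replicate 1, and their median difference between control replicates 1 and 2 was 1.41 on the log2(TPM + 1) scale, against 1.97 for Car3 and -0.002 over all genes. Acta1, skeletal actin, was at 38.3 TPM in anti-CD71 replicate 2, against 75.89 and 17.41 TPM in the controls. Mylpf, a myosin light chain of fast muscle, was at 18.24 TPM, against 36.22 and 9.1 TPM, and Tnnt3, fast troponin T, at 18.24 TPM, against 20.26 and 4.35 TPM. None of the 12 tested muscle markers passed the limma comparison in either direction. Their part in the Car3 values was not tested.

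**Figure D2:**
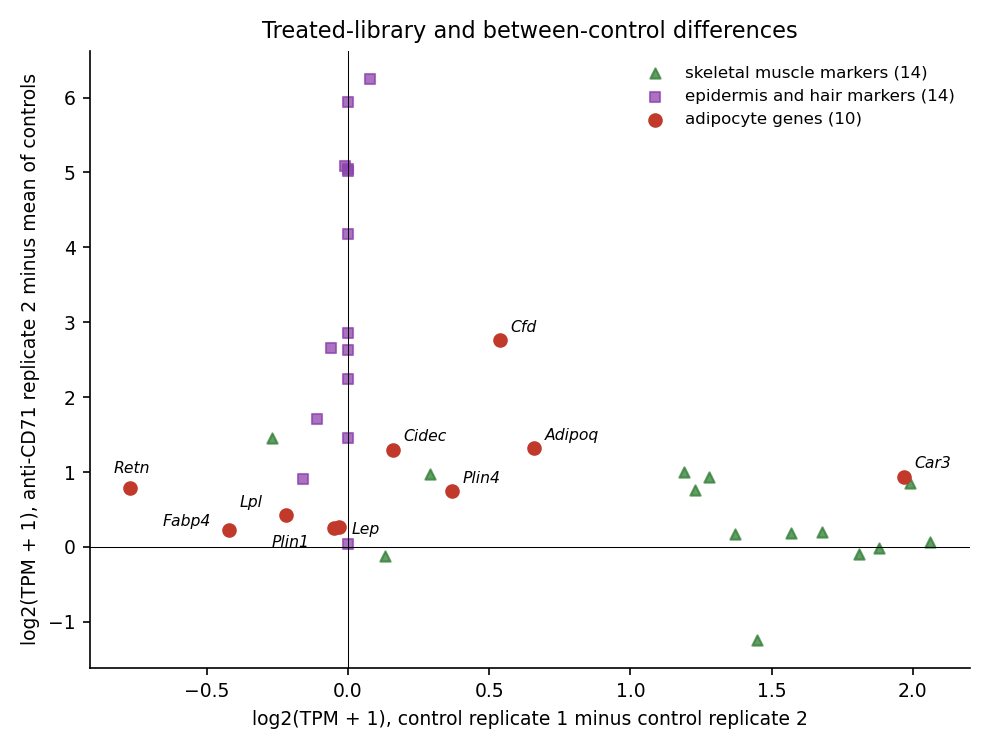
Difference of log2(TPM + 1) between anti-CD71 replicate 2 and the mean of the controls (vertical) against the difference between control replicates 1 and 2 (horizontal) for the 10 adipocyte genes (circles), 14 skeletal muscle markers (triangles) and 14 epidermis and hair markers (squares), 1 point per gene. Car3 (1.97 horizontally) lies among the muscle markers. Cfd, Adipoq and Cidec lie above most of the muscle markers and left of most of them, but the muscle marker Myh4 (1.45 vertically) lies above Adipoq and Cidec.

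The order of the levels was set by Fabp4 in every library. It held 75.4% of the summed TPM of the 10 genes in anti-CD71 replicate 2, against 84.8% and 94.1% in the controls. Cfd came next in anti-CD71 replicate 2 (11.0%), then Car3, Lpl, Adipoq, Cidec, Retn, Plin4, Plin1 and Lep. In both controls Cfd stood below Lpl and Car3 and above the other members. The neighbours in this order from Adipoq down were all at 2.54 TPM or less in every library. The summed TPM of the 10 genes were 139.61 in anti-CD71 replicate 2, against 91.24 and 110.25 in the controls, a ratio of 1.39 to the control mean. Without Fabp4 they were 34.28, against 13.87 and 6.48. For Cfd, Adipoq, Retn, Lep, Plin1 and Cidec they were 21.48 in anti-CD71 replicate 2, against 3.0 and 2.07 in the controls.

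**Figure D3:**
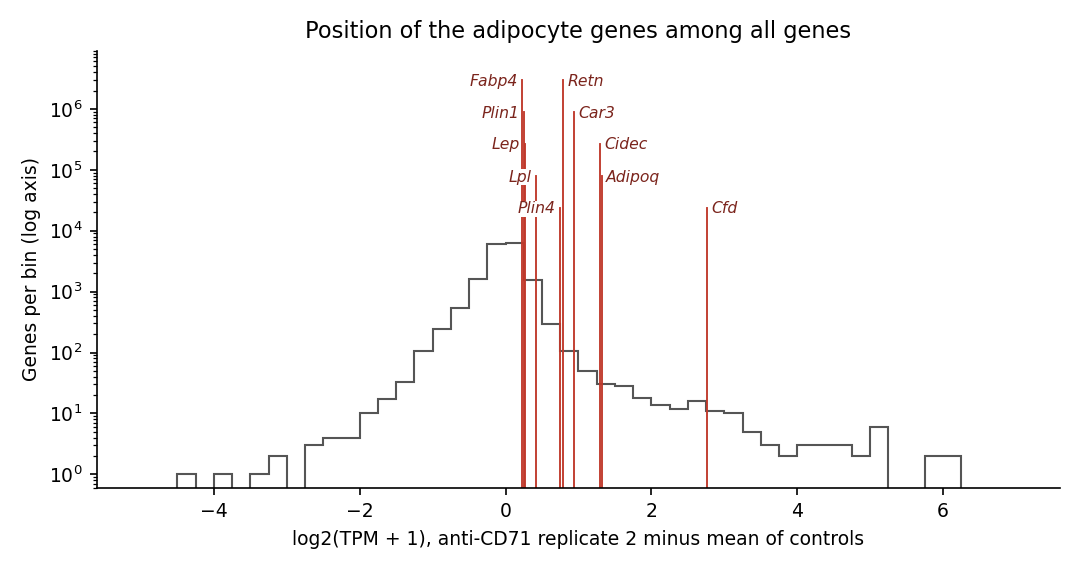
Number of genes per bin of the difference in log2(TPM + 1) between anti-CD71 replicate 2 and the mean of the controls, over 17026 genes above 0 TPM (outline, logarithmic vertical axis), with a line at each adipocyte gene; the height of a line has no meaning. All 10 genes lie right of 0, from Fabp4 at 0.23 to Cfd at 2.76.

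On that scale, 0.305% of all genes had a difference as large as that of Cfd, 0.94% as that of Adipoq, 0.946% as that of Cidec and 14.4% as that of Fabp4. These shares take no account of the spread between the controls. The share was 1.44% for Car3, which lay inside the range of the controls, and 1.81% for Retn. The median difference of the 10 genes was 0.77, beside -0.002 over all genes. Of the 10 genes, 4 (Cfd, Fabp4, Lpl and Car3) passed the filter of 1 TPM in 2 of the 3 libraries.

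The other lists of the adipocyte programme differed among themselves. Beside 39.3% of all genes above 0 TPM, the genes above both controls in anti-CD71 replicate 2 were 2 of 12 transcription factors, 7 of 10 lipolysis genes, 5 of 15 synthesis genes, 4 of 11 uptake genes and 12 of 16 other adipocyte genes. Those below both controls, beside 36.7% of all genes above 0 TPM, were 8 transcription factors, 2 lipolysis genes, 7 synthesis genes, 6 uptake genes and 2 other adipocyte genes. Pparg, the master regulator of adipocyte formation, named after its values were seen, was at 2.84 TPM in anti-CD71 replicate 2, against 2.41 and 2.84 TPM in the controls (adjusted p = 0.802 by limma). Of 12 adipogenic transcription factor genes, 8 were tested and 1, Cebpd, an early driver of adipocyte formation that is also induced in inflammation, fell (log2 change -1.16, adjusted p = 0.0404 by limma). The list's median over tested genes was -0.50, beside -0.008 over all tested genes. Cebpb, its partner, was at 45.27 TPM in anti-CD71 replicate 2, against 58.56 and 75.45 TPM, and Srebf1, which drives lipid synthesis genes, at 32.3 TPM, against 41.38 and 39.44 TPM. Neither passed (adjusted p = 0.132 and 0.126 by limma).

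Of 10 genes of lipolysis and glycerol release, 6 were tested and 1 rose. This was Angptl4, which encodes a secreted inhibitor of lipoprotein lipase that is also induced by low oxygen, at 73.72 TPM in anti-CD71 replicate 2, against 36.58 and 34.4 TPM (log2 change 1.03, SE 0.09, adjusted p = 0.0206 by limma). Its value is a sum over 2 copies of 1 transcript, between which reads may have been split evenly. Abhd5, the activator of the main triglyceride lipase, had a log2 change of 0.35 (adjusted p = 0.186 by limma) and Pnpla2, that lipase, of -0.13 (adjusted p = 0.525 by limma). G0s2, an inhibitor of the same lipase, singled out after its values were seen, was at 8.45 TPM in anti-CD71 replicate 2, listed at 0 in control replicate 1 and at 0.11 TPM in control replicate 2, and was below the filter. Of 15 genes of fatty acid and triglyceride synthesis, 12 were tested and 1, the desaturase gene Scd2, fell (log2 change -0.52, adjusted p = 0.0474 by limma). Fasn, fatty acid synthase, was at 89.52 TPM in anti-CD71 replicate 2, against 97.11 and 88.09 TPM, and Scd1 at 69.02 TPM, against 97.69 and 94.82 TPM (adjusted p = 0.787 and 0.0523 by limma).

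Of 11 genes for uptake and insulin signalling, 9 were tested and 1 fell. It was Gpihbp1, the capillary protein that holds lipoprotein lipase (log2 change -0.66, adjusted p = 0.0373 by limma in replicate 2). Over the transcripts listed in all 4 files, Gpihbp1 was at 33.66 and 22.52 TPM in anti-CD71 replicates 1 and 2, against 36.57 and 34.07 TPM in the controls, and did not pass over 4 libraries (log2 change -0.35, adjusted p = 0.278 by limma). The caveolar genes Cav1 (0.11) and Cavin1 (0.23) and the fatty acid transporter gene Slc27a1 (-0.23) did not pass in replicate 2. Of 17 other genes used by adipocytes, 8 were tested and 0 passed by limma, and 16 were above 0 TPM in some library. Plin2, a droplet protein of nearly all cells, was at 301.66 TPM in anti-CD71 replicate 2, against 249.92 and 232.59 TPM (adjusted p = 0.0929 by limma), and Plin3 at 50.23 TPM, against 46.07 and 49.78 TPM. Apoe, a lipoprotein gene, was at 63.42 TPM, against 29.36 and 57.56 TPM. Some genes of the adipocyte lists, named after their values were seen, lay below both controls. Cebpa was at 9.9 TPM in anti-CD71 replicate 2, against 15.95 and 18.55 TPM in the controls, and Lipe at 5.06 TPM, against 6.31 and 8.2 TPM. Some less abundant genes, also named after their values were seen, stood above both controls. Adig, an adipocyte gene, was at 0.53 TPM in anti-CD71 replicate 2 and listed at 0 in both controls. Lgals12, a galectin of adipocytes, was at 0.24 TPM, against 0.06 and 0.03 TPM. Dgat2, which completes triglyceride synthesis, was at 1.62 TPM, against 0.79 and 0.75 TPM, and was below the filter. Sncg, gamma-synuclein, was at 15.12 TPM, against 6.36 and 8.89 TPM (log2 change 0.92), short of the threshold with an adjusted p of 0.0801 by limma.

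Among 6 genes for receptors and binding proteins linked to adipokines, the adiponectin receptor genes Adipor1 (log2 change 0.06) and Adipor2 (-0.01) did not pass. The chemerin receptor gene Cmklr1 (-0.98, adjusted p = 0.0348 by limma) and the complement receptor gene C3ar1 (-0.55, adjusted p = 0.0474 by limma) fell, both of them expressed by macrophages. Of 8 genes of brown adipocytes, 2 were tested and neither passed by limma. Cox7a1, a mitochondrial subunit also used by muscle, was at 6.53 TPM in anti-CD71 replicate 2, against 3.88 and 4.74 TPM (log2 change 0.51). Dio2, which activates thyroid hormone, was at 1.8 TPM, against 1.17 and 2.86 TPM (log2 change -0.05). Ucp1, the uncoupling protein that defines brown adipocytes, named after its values were seen, was listed at 0 in anti-CD71 replicate 2 and control replicate 1 and at 0.04 TPM in control replicate 2. Cox8b was listed at 0 in anti-CD71 replicate 2, against 1.0 and 0.98 TPM in the controls. Of 11 genes of adipocyte progenitors and stroma, 9 were tested and 2 fell, Pdgfra, a growth factor receptor of fibroblasts and progenitors (-0.64, adjusted p = 0.0321 by limma), and Cd55 (-1.22, adjusted p = 0.0355 by limma). Cd55 did not pass over 4 libraries (-0.84, adjusted p = 0.135 by limma). Cd34 (-0.03) and Ly6a (-0.51), the other abundant genes of that list, did not pass.

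Markers of skin were higher in the same library in which Cfd, Adipoq and Cidec were high. All 14 epidermis and hair markers lay above both controls in anti-CD71 replicate 2, beside 39.3% of all genes above 0 TPM and 40.3% of the genes under 1 TPM in both controls. Of the 14, 9 were listed at 0 in both controls, so any value above 0 placed them above both. Sbsn, a protein of the upper epidermis, was the single one tested, and it rose (log2 change 1.71, adjusted p = 0.0249 by limma). The hair follicle keratin gene Krt71 was at 77.12 TPM in anti-CD71 replicate 2, against 0.06 and 0 TPM in the controls, and Krt14, of the basal epidermis, at 36.37 TPM, against 0.09 and 0.1 TPM. Krt25, another hair follicle keratin, can be read in all 4 files. It was listed at 0 in anti-CD71 replicate 1 and was at 60.54 TPM in anti-CD71 replicate 2, and both controls were listed at 0. The treated libraries thus differed in Krt25, while Lep was at 0.02 and 0.21 TPM in them, both under 1 TPM. Whether these differences are related was not tested. Of 7 sebaceous gland markers, 6 lay above both controls and 0 of the 3 tested passed by limma, Soat1 (0.15), Mgst1 (0.15) and Far2 (0.23), which are also the most abundant. Krt79, a keratin of the sebaceous duct named after its values were seen, was at 0.96 TPM in anti-CD71 replicate 2, against 0.07 and 0 TPM in the controls. The part of skin in the adipocyte values was not tested.

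**Figure D4:**
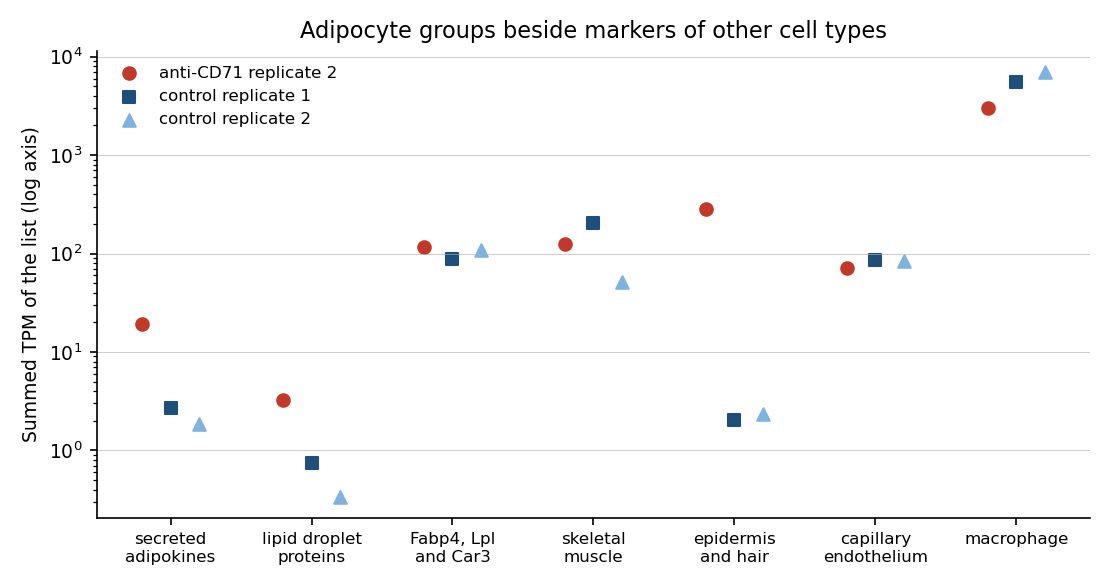
Summed TPM (logarithmic axis) of 3 groups of adipocyte genes and of 4 marker lists in anti-CD71 replicate 2 (circles), control replicate 1 (squares) and control replicate 2 (triangles), 1 point per library. The secreted adipokines (19.32, against 2.68 and 1.84 TPM) and lipid droplet genes (3.27, against 0.75 and 0.34 TPM) are highest in the treated library, as are the epidermis and hair markers, while muscle markers are highest in control replicate 1 and macrophage markers are lowest in the treated library.

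Besides Lep, 13 genes of the adipocyte lists could be read in full in anti-CD71 replicate 1. Replicate 2 was the highest of the 4 libraries for 6 of the 13. These were also the 6 in which it lay above both controls, as it did for 39.3% of all genes above 0 TPM in the complete libraries. Replicate 1 lay above both controls for 1 and below both for 7, and the share over all listed genes was not counted. Pck1, which supplies glycerol for triglyceride, was at 0.05 and 0.25 TPM in anti-CD71 replicates 1 and 2, against 0.03 and 0 TPM in the controls. Gpd1, of the same pathway, was at 0.26 and 0.62 TPM, against 0.4 and 0.42 TPM. Adrb3, the beta-3 adrenergic receptor of adipocytes, was at 0.08 and 0.17 TPM, against 0.11 and 0.09 TPM. These 3 are among the 6 and lay under 1 TPM in every library. Gpam, also among the 6, was at 9.46 and 10.94 TPM in anti-CD71 replicates 1 and 2, against 10.23 and 9.7 TPM in the controls. All of these and the genes named next were picked after their values were seen. Others did not follow that order. Rbp4, the retinol carrier, was at 0.27 and 0.18 TPM, against 0.1 and 0.68 TPM, and Dio2 at 2.32 and 1.8 TPM, against 1.17 and 2.86 TPM. Irs2 and Acaca were lower than both controls in both treated libraries. Irs2 was at 2.2 and 2.22 TPM, against 3.75 and 4.23 TPM. Acaca, over shared transcripts, was at 22.14 and 22.29 TPM, against 29.43 and 27.19 TPM. None of the 5 of the 13 that were tested over 4 libraries passed by limma (adjusted p between 0.0557 and 0.884), and 0 of the 10 adipocyte genes were tested in either comparison that uses replicate 1, where limma called 0.832% of genes higher and 3.45% lower over 4 libraries, and 0.71% higher and 1.42% lower in replicate 1 alone.

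Other genes with a profile like that of the summed TPM of the 10 genes, by Euclidean distance of centred log2(TPM + 1) over the 3 complete libraries among 12098 genes averaging 1 TPM or more, were Rapgef4 (0.0228), Zfp708 (0.0228), Gm14410 (0.0267), Ttc32 (0.0299), Cox7a1 (0.0387), Plek2 (0.0413), Ace (0.0429) and Ednra (0.0457). Fabp4 holds most of that sum. Nearest to Adipoq were Cma1 (0.14), a mast cell protease, Slpi (0.145), a protease inhibitor, Hdc (0.179), which makes histamine, Krt16 (0.223), a keratin of stressed epidermis, and Lrg1 (0.262). Cma1, for instance, was at 38.38 TPM in anti-CD71 replicate 2, against 17.35 and 9.96 TPM in the controls. With 3 libraries many genes share any one order, so these distances are a description.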

How the data were processed

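Per the labels' protocols, BGI extracted RNA with TRIZOL and prepared the libraries. The authors deposited TPM for each RefSeq transcript to 2 decimals. The build named in the submitters' processing notes is GRCm38.p6. No source used here names the aligner or the program that computed TPM, and TPM keeps no depth. The 3 complete files list 59881 transcripts each. The file of anti-CD71 replicate 1 ends inside a line, which was not used, leaving 13586 transcripts (22.69%). A RefSeq table of the same build gave symbols for 58425 transcripts (17574 genes), including 1744 entries for copies at a further locus, and TPM were summed per gene. Unmatched transcripts (1.42% to 1.55% of TPM in the complete libraries) were not used.

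With limma 3.58.1 (R 4.3.3), log2(TPM + 1) was compared, letting the variance prior follow the mean level, over genes with at least 1 TPM in 2 of the compared libraries, and Benjamini-Hochberg adjustment over all tested genes, called at adjusted p under 0.05. Fold changes on this scale understate the change of low genes. With 1 treated library, its spread is assumed to equal that of the controls. A gene counted as listed for replicate 1 where shared transcripts held at least 90% of its TPM, and shared transcripts were then compared (1563 genes over 4 libraries). The fit was tested on simulated data that left out genes of low level, and recovery of changes was required over 4 libraries only. None of the 10 genes was tested over 4 libraries. That test therefore does not show how well their changes would be called. Alternatives changed the pseudocount, filter, scaling, variance trend, listing rule, replicate block and libraries used. The 10 genes and the lists were chosen with earlier results of these data known. From each list, called genes and the 3 with the highest mean TPM are named; a few others are marked in the text as chosen after their values were seen. Macrophage and epithelial markers (Krt8, Krt18, Krt6a, Krt17, Epcam and Cdh1) were listed to check the tissue. All 6 epithelial markers lay above both controls in anti-CD71 replicate 2, beside 39.3% of all genes above 0 TPM. Krt18 had a log2 change of 0.42. Krt6a was at 9.25 TPM, against 0.03 and 0 TPM in the controls, and Krt17 at 26.84 TPM, against 0.06 and 0.14 TPM. Epcam was at 1.3 TPM, against 0.1 and 0.2 TPM. These last genes were nearly absent from the control tumours and so do not mark them.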

Additional observations from a re-analysis of the deposited data

How the results depend on the processing

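The log2 difference of Car3 in anti-CD71 replicate 2 was -0.05 without control replicate 2 and 1.92 without control replicate 1, and that of Fabp4 was 0.44 and 0.02. Apart from Car3, and from Plin1 and Plin4 over curated transcripts, the adipocyte genes stayed above 0 under each alternative run, and of the 4 tested, Cfd changed its side of the threshold. The ratio of summed TPM of 1.39 became 3.37 without Fabp4 (chosen after seeing the data) and 8.47 without Fabp4, Lpl, Car3 and Plin4. In anti-CD71 replicate 2 the genes called numbered 57 higher and 286 lower. They numbered 0 and 0 with no filter (3401 at an unadjusted p under 0.05 by limma), 60 and 12 with a filter of 1 TPM in 1 library, 38 and 187 with median scaling, and 13 and 22 without the variance trend. Over 4 libraries 13 were higher and 54 lower, against 1 and 0 with no filter (435 at an unadjusted p under 0.05 by limma), 1 and 7 with 1 TPM in 1 library, 21 and 36 with median scaling, 1 and 3 without the trend, and 2 and 2 counting any listed transcript. Leaving out 1 library in turn gave 1 to 35 higher and 0 to 61 lower, with 1 and 0 without control replicate 1 (limma gave 270 an unadjusted p under 0.05), 2 and 0 without control replicate 2 (limma gave 171 an unadjusted p under 0.05), 11 and 22 without anti-CD71 replicate 2 and 35 and 61 without anti-CD71 replicate 1. In anti-CD71 replicate 1 the 11 higher and 22 lower became 0 and 0 with no filter (343 at an unadjusted p under 0.05 by limma) and counting any listed transcript (711 at an unadjusted p under 0.05 by limma), 6 and 5 with 1 TPM in 1 library, 9 and 7 with median scaling, 1 and 1 without the trend, and 5 and 5 with at least 50% listed. The cause of these shifts was not tested. With the replicate number as a block, 2 genes were called higher and 1 lower over 4 libraries; same-numbered libraries did not deviate together (correlation -0.0055 over 1563 genes), so the numbers were not taken as pairs. The comparisons of 1 treated library allow no block, and without a control they give a difference and no test.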
